A study of Mus musculus with 6 samples.

Results

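The complement components examined in P4 sciatic nerve were *C1qa*, *C1qb*, *C1qc*, *C1ra*, *C1s1*, *C2*, *C3*, *C4b*, *Cfb* and *Serping1*, 10 of the 59485 genes in the deposited table. They were taken by symbol, from the steps of the cascade up to the cleavage of C3 and from its first inhibitor, and each symbol matched 1 gene. The mutants were *HtPA-Cre;Adar1 fl/fl;R26R* mice, in which Cre recombinase under the human tissue plasminogen activator promoter removes a floxed part of *Adar1* from neural crest (NC) cells, among them Schwann cells (SCs). The controls are labelled wild-type, a name that the methods give to mice without Cre that carry R26R and either *Adar1 fl/fl* or *Adar1 fl/+*, so floxed alleles and the YFP tracer R26R were present in both groups. Macrophages, endothelial cells and other cells of the nerve that do not come from the NC keep *Adar1* in this model. There were 3 control and 3 mutant animals, with 1 RNA library each.

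Complement is a chain of plasma proteins that tags surfaces for uptake or lysis. In the classical pathway, C1q binds a surface and carries the serine proteases C1r and C1s, which cleave C4 and C2 into a C3 convertase. In the alternative pathway, factor B forms a second kind of C3 convertase, and C1 inhibitor, the product of *Serping1*, inactivates C1r and C1s. Plasma complement comes largely from the liver, but C1q is made mainly by macrophages and related myeloid cells, and fibroblasts, endothelial cells and macrophages can make several of the other components. C1q and C3 are known for tagging debris in injured peripheral nerve.

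The targeted gene was read first. *Adar* (GSMG0024553, chromosome 3, 89715022 to 89753454, mm10) had 1602, 2066 and 1133 normalized reads in the controls (replicates 1, 2 and 3, the order used throughout) and 11768, 9311 and 9773 in the mutants. It was thus higher, not lower, in the mutant libraries, with a log2 fold change of 2.72 (SE 0.20; limma, adjusted p = 4.1e-05). The table holds 1 value for the whole gene, so the deleted part and the loss in NC cells cannot be read from it, and the value does not check the labels. For this reason each library is named by its label, as control-labelled or mutant-labelled, and every direction given here rests on the labels.

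Values are reads counted on a gene divided by a size factor per library, called normalized reads here. Control-labelled libraries had 50938349 to 68654387 reads on genes and mutant-labelled ones 57047095 to 78250094, and 1 read was worth 0.727 to 1.27 normalized reads. Genes were compared on log2(value + 1) with limma, over the 25802 whose mean reached 10 in either genotype. The threshold was a 2-fold change together with an unadjusted p of at most 0.05, and adjusted p-values cover all tested genes. For 3 libraries against 3, the smallest two-sided p of an exact permutation test is 0.1. In bulk tissue, fewer cells of a type and less RNA per cell cannot be told apart. Of 6 SC markers, 4 were lower in mutant-labelled libraries, while *Sox10*, which marks the lineage, was present in all, with 10920 to 12618 normalized reads in the control-labelled libraries and 5838 to 9171 in the mutant-labelled ones (not past the threshold). From *Xist* and Y-linked genes, 2 control-labelled and 1 mutant-labelled libraries had the female pattern.

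All 10 genes passed the filter on low values. *C2*, *Cfb*, *C4b*, *C3*, *C1ra* and *Serping1* rose past the threshold in the mutant-labelled libraries, 6 of 10, where 13.9% of all tested genes did, and 0 of 10 fell past it (10.4% of all). The same 6 had an adjusted p at or under 0.05 (11.5% of all tested genes were called higher by this stricter rule). The groups did not overlap, with mutant-labelled libraries higher, in 8 of 10 (25.9% of all). The median log2 fold change was 1.55, and 0.03 over all tested genes. The change was unequal along the cascade. The components that form the C3 convertases changed most, the C1q subunits stayed below 2-fold, and *C1s1* and *C1qb* overlapped between groups.

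**Figure D1:**
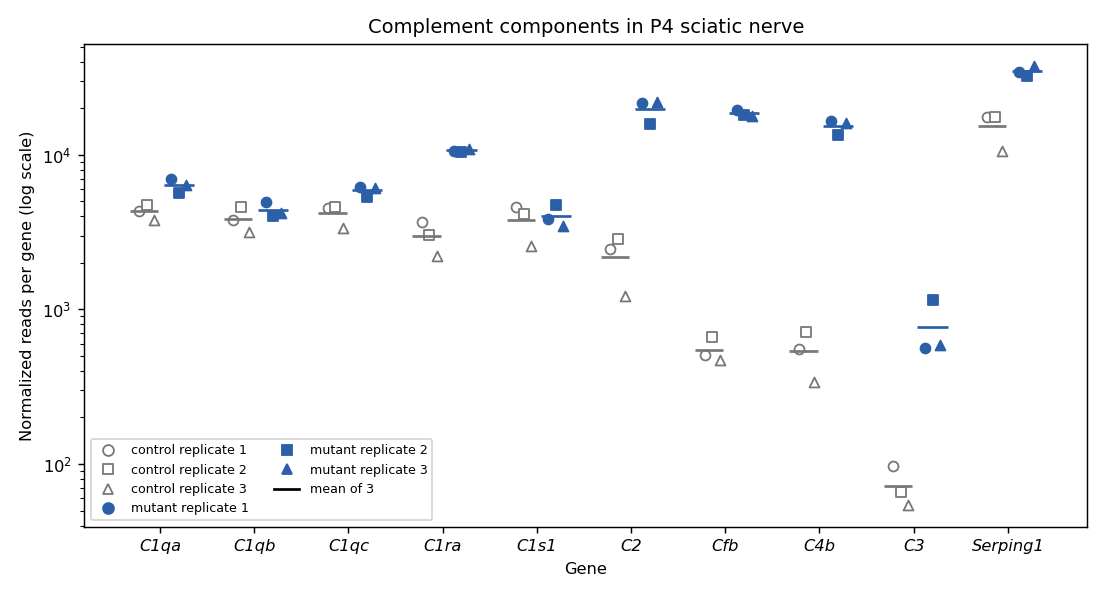
Normalized reads (log scale) of the 10 complement components in each library, with open grey symbols for control-labelled and filled blue symbols for mutant-labelled libraries, shapes for replicates 1 to 3 and lines for the mean of 3. Groups are apart for all genes but *C1qb* and *C1s1*, with the widest gaps at *Cfb* and *C4b*.

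*C4b*, *C1ra* and *C1s1* each have a near-identical copy in mouse (*C4a*, *C1rb* and *C1s2*), and stretches that tell their reads apart are shown here. For each pair the stretch is the 30 aligned bases with the most differences in the longest reading frame of GENCODE M21 transcripts, 5′ to 3′, and capitals mark the positions that differ. The stretches start at base 2785 of the *C4b* transcript used, 2779 of *C4a*, 2187 of *C1ra*, 1953 of *C1rb*, 1738 of *C1s1* and 1512 of *C1s2*.
C4b: aGGtggtggctCGagggGTtttTgattTaG
C4a: aATtggtggctAAagggACtttGgattCaA
C1ra: tcgggaTaacagAaGataAgTtaGctttcG
C1rb: tcgggaCaacagGaAataGgAtaCctttcC
C1s1: tgTcgggaCcaTgTctGtgagGACAActCT
C1s2: tgCcgggaTcaCgGctTtgagACTGGctGA

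The transcripts were 96.1% (*C4b* and *C4a*), 98.0% (*C1ra* and *C1rb*) and 95.9% (*C1s1* and *C1s2*) identical over their aligned bases. Of all stretches of 130 bases, the length of a read, 10.6% of those in *C4b*, 29.2% of those in *C1ra* and 4.12% of those in *C1s1* also occur unchanged in the copy. Reads from such stretches cannot be assigned to 1 of the pair by sequence, and how the counting treated them is not given in the sources used here.

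Promoters are shown for the members whose windows held a motif near the start site. In the RefSeq table (GRCm38.p6, windows of 300 bases around each start), *C1qb*, *C1qc*, *C1ra*, *C1s1* and *C3* had an entry, with 6 windows in all. Entries for *C1qa*, *C2*, *Cfb*, *C4b* and *Serping1* were missing. Capitals mark a C/EBP site (TTGCNNAA) in *C3*, at chr17:57228163-57228192 on the minus strand and 56 to 27 bases before the start site. In *C1ra*, at chr6:124512635-124512664 on the plus strand and 15 to 44 bases after the start site, they mark a C/EBP site on the reverse strand and then a gamma-activated site (TTCNNNGAA).
C3: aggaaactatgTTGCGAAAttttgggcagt
C1ra: gtTTATGCAAatgcttcaTTCCCTGAAaca

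Both strands were searched, and these matches do not overlap each other. C/EBP letters stood in 3 of the 6 windows, those of *C3*, *C1ra* and 1 of the pair of *C1s1* windows, and in 10.8% of all 32851 windows. The gamma-activated site stood in 1 of 6 and in 8.30% of all windows. The interferon-stimulated response element (GAAA, any 2 bases, GAAA; in 3.44% of all windows) and the NF-kB site (GGGA, any base, TT, any base, CC; in 1.20%) were found in 0 of 6, which says only that these letters are not in these windows.

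*Cfb* (GSMG0017439, chromosome 17, 34856379 to 34862514, minus strand, mm10) encodes factor B, the protease of the alternative C3 convertase. It had 507, 666 and 469 normalized reads in control-labelled replicates 1 to 3 and 19554, 18084 and 17763 in the mutant-labelled ones. The mean thus went from 547 ± 105 to 18467 ± 955 (SD, n = 3), with the groups far apart. Its log2 fold change was 5.09 (SE 0.14; limma, adjusted p = 8.4e-07), and 0.996% of tested genes had a larger one.

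*C4b* (GSMG0017434, chromosome 17, 34728380 to 34743897, minus strand) encodes C4, whose larger fragment anchors the classical and lectin C3 convertase to a surface. Its values were 555, 713 and 341 in control-labelled and 16543, 13321 and 15938 in mutant-labelled replicates, or 536 and 15267 on average. Every mutant-labelled library was above every control-labelled one. The log2 fold change was 4.89 (SE 0.24; limma, adjusted p = 5.89e-06), with 1.23% of tested genes above it. *C4a*, the near-identical copy, had 71.1, 47.2 and 43.1 and then 184.8, 161 and 123 normalized reads, and its value rose by less (log2 fold change 1.53, SE 0.34; limma, adjusted p = 0.00896). With 10.6% of the read-length stretches of *C4b* shared with *C4a*, the change of *C4a* cannot be told apart from reads of *C4b*. The log2 ratio of *C4b* to *C4a* was 3.26 ± 0.54 in the control-labelled libraries and 6.62 ± 0.35 in the mutant-labelled ones (SD, n = 3; exact permutation p = 0.1, the smallest possible).

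*C2* (GSMG0017440, chromosome 17, 34862602 to 34882101, minus strand) encodes the protease subunit of the classical C3 convertase and is the counterpart of factor B. It had 2440, 2870 and 1214 normalized reads in control-labelled and 21439, 15739 and 21914 in mutant-labelled replicates, with means of 2174 ± 859 and 19697 ± 3436 (SD, n = 3). Its log2 fold change was 3.25 (SE 0.29; limma, adjusted p = 9.95e-05). The log2 ratio of *Cfb* to *C2*, not corrected for length, was -1.91 ± 0.48 in the control-labelled libraries and -0.08 ± 0.26 in the mutant-labelled ones (SD, n = 3; exact permutation p = 0.1). That ratio, like those of *C4b* to *C4a* above and of *C4b* to *C2*, was chosen after the values were seen. *C4b* against *C2* went from -1.99 ± 0.15 to -0.36 ± 0.11 (exact permutation p = 0.1).

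*C3* (GSMG0017721, chromosome 17, 57203967 to 57228136, minus strand) encodes the central component on which all pathways converge. It was the lowest of the 10, with 96.6, 66.1 and 54.5 normalized reads in control-labelled and 566, 1147 and 591 in mutant-labelled replicates. The groups did not overlap, and mutant-labelled replicate 2 stood well above the other two. Its log2 fold change was 3.35 (SE 0.34; limma, adjusted p = 0.000175). Adipocytes are a known source of *Cfd* and also make *C3*. The summed value of 4 adipocyte markers was 1596, 7.56 and 532 in the control-labelled replicates and 23.3, 6464 and 13.8 in the mutant-labelled ones. Mutant-labelled replicate 2 was the highest of all libraries in these markers and in *C3*, and without it the log2 fold change of *C3* was 3.02. The part of adipocytes in the values of *C3* was not tested. *Cfd*, factor D, had 1057, 33.1 and 84.9 and then 21.8, 3148 and 4.95 normalized reads, so its order over libraries was not that of the genotypes (log2 fold change -0.95; limma, adjusted p = 0.764).

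**Figure D2:**
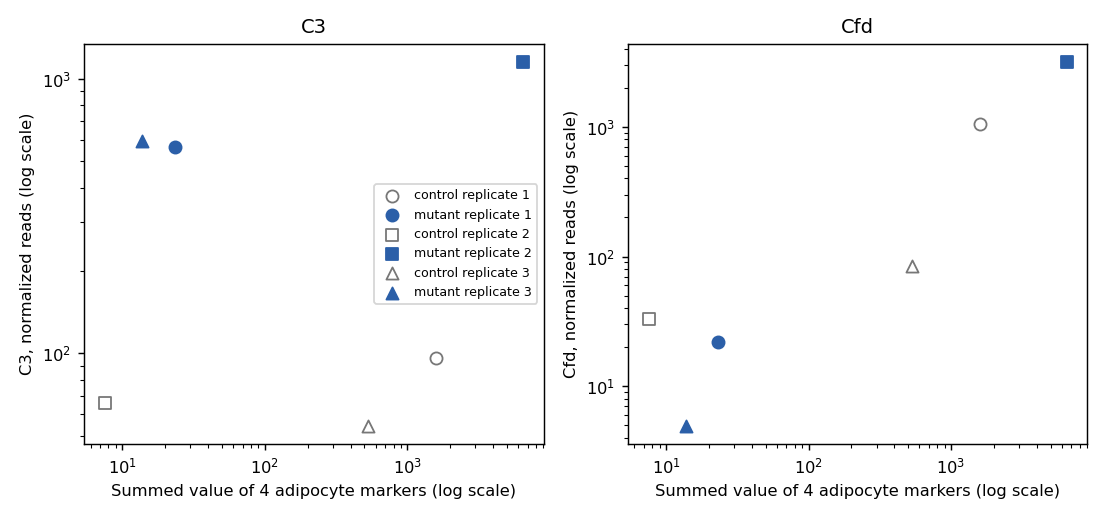
*C3* (left) and *Cfd* (right) in normalized reads against the summed value of 4 adipocyte markers in each of the 6 libraries, all axes on a log scale; open grey symbols are control-labelled and filled blue ones mutant-labelled. Mutant-labelled replicate 2 has the highest summed marker value (6464), the highest *C3* (1147) and the highest *Cfd* (3148).

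*C2*, *Cfb* and *C4b* lie together in the major histocompatibility region of chromosome 17, *Cfb* and *C2* 87 bases apart on the same strand and *C4b* 112481 bases from *Cfb*. Of 13 other tested genes with a symbol there (those within the locus and the 3 nearest on each side), *C4a* alone passed the threshold, with the limit on its reads given above. *Stk19*, *Dxo*, *Skiv2l* and *Nelfe*, which lie between *C4a* and *Cfb*, had log2 fold changes of -0.08, -0.06, -0.47 and -0.14. On the *C4b* side *Fkbpl*, *Atf6b* and *Tnxb* had 0.39, -0.36 and -0.02, and on the *C2* side *Zbtb12*, *Ehmt2* and *Neu1* had -0.09, -0.24 and -0.73. D17H6S56E-5 overlaps *C4b*, *Cfb* and *C2* on the same strand (chromosome 17, 34668851 to 35000960) and had 5398 to 6410 normalized reads in the control-labelled libraries and 8256 to 12944 in the mutant-labelled ones (log2 fold change 0.83, SE 0.16; limma, adjusted p = 0.00525), below 2-fold. *Cyp21a1*, which overlaps *C4b*, had at most 57.9 normalized reads in any library. How reads were divided among overlapping genes is not given in the sources used here.

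**Figure D3:**
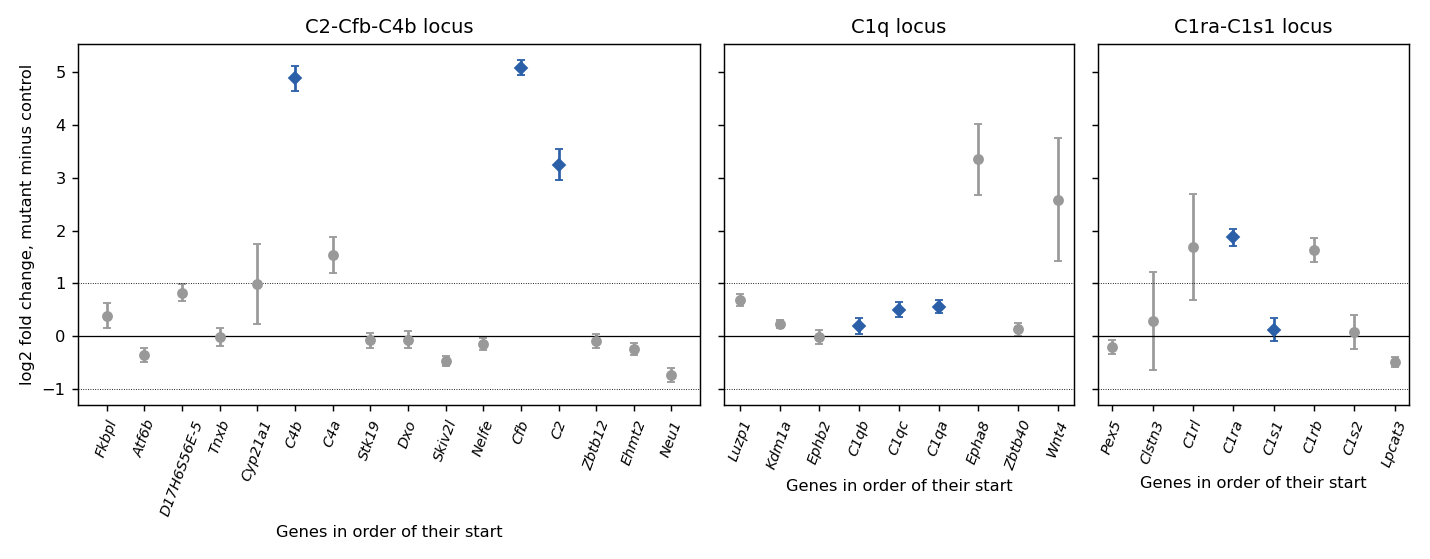
Log2 fold change (mutant minus control, bars are SE) of the members, as blue diamonds, and of neighbouring tested genes, as grey circles, in order of their start at 3 loci; dotted lines mark 2-fold. At the first locus *C4b*, *Cfb* and *C2* stand at 4.89, 5.09 and 3.25 among neighbours that, apart from *C4a*, stay below 1.

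The C1 complex joins C1q to the proteases C1r and C1s. *C1ra* (GSMG0032461, chromosome 6, 124512405 to 124523440, plus strand) encodes C1r, which activates C1s. It rose from 3673, 3033 and 2207 normalized reads in control-labelled to 10549, 10434 and 10952 in mutant-labelled replicates (2971 ± 735 and 10645 ± 272, SD, n = 3). The mutant-labelled libraries lay close together and all above the control-labelled ones. The log2 fold change was 1.87 (SE 0.17; limma, adjusted p = 9.67e-05). *C1s1* (GSMG0033658, chromosome 6, 124530344 to 124542359, minus strand), for the protease that cleaves C4 and C2, had 4593, 4144 and 2570 and then 3817, 4757 and 3467 normalized reads. Its groups overlapped (log2 fold change 0.12, SE 0.22; limma, adjusted p = 0.698), and the sign turned to -0.13 without control-labelled replicate 3 and to -0.01 without mutant-labelled replicate 2.

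*C1ra* and *C1s1* are 6903 bases apart and on opposite strands. The log2 ratio of *C1ra* to *C1s1*, chosen after the values were seen, was -0.33 ± 0.12 in the control-labelled libraries and 1.42 ± 0.27 in the mutant-labelled ones (SD, n = 3; exact permutation p = 0.1). The copies *C1rb* and *C1s2* differed in the same way in value: *C1rb* had 144, 151 and 101 and then 430, 390 and 397 normalized reads (log2 fold change 1.63, SE 0.23; limma, adjusted p = 0.000914), whereas *C1s2* had 0.08 (limma, adjusted p = 0.864). The ratio of *C1ra* to *C1rb* overlapped between groups, with linear values of 19.9 to 25.3 and 24.5 to 27.5. With 29.2% of the read-length stretches of *C1ra* shared with *C1rb*, the change of *C1rb* cannot be told apart from reads of *C1ra*. An unnamed gene on the opposite strand spans *C1ra* (30.4 to 118 normalized reads in the control-labelled libraries, 189 to 251 in the mutant-labelled ones). Of the 6 nearest genes, *Pex5*, *Clstn3*, *C1rl*, *C1s2* and *Lpcat3* did not pass the threshold (log2 fold changes of -0.21, 0.28, 1.69, 0.08 and -0.49).

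*Serping1* (GSMG0023064, chromosome 2, 84765361 to 84775429, minus strand) encodes C1 inhibitor. Its values were 17596, 17528 and 10528 in control-labelled and 34186, 32222 and 37448 in mutant-labelled replicates, without overlap (log2 fold change 1.22, SE 0.19; limma, adjusted p = 0.0016). Without control-labelled replicate 3, the log2 fold change was 0.98 and thus below 2-fold, while the adjusted p was at most 0.021 under every alternative tried (limma, edgeR or DESeq2). Set against the proteases that it inhibits, the log2 ratio of *C1ra* and *C1s1* summed to *Serping1* was -1.17 ± 0.10 in the control-labelled libraries and -1.24 ± 0.15 in the mutant-labelled ones (SD, n = 3; exact permutation p = 0.7), and the groups overlapped. The difference of this ratio was -0.06, and 0.0048 without mutant-labelled replicate 3.

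Control-labelled replicate 3 was the lowest of the 3 control-labelled libraries for 10 of 10 members. It was the lowest for 31.4% of all tested genes.

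The C1q subunits are encoded by 3 neighbouring genes on chromosome 4, minus strand: *C1qb* (GSMG0028526, 136880133 to 136886196), *C1qc* (GSMG0028527, 136889802 to 136892915) and *C1qa* (GSMG0028528, 136895916 to 136898844). None of them passed the threshold. *C1qa* had 4353, 4730 and 3803 normalized reads in control-labelled and 6972, 5626 and 6388 in mutant-labelled replicates, with the groups apart (log2 fold change 0.56, SE 0.12; limma, adjusted p = 0.00739). *C1qc* had 4541, 4620 and 3368 and then 6213, 5339 and 6054, also apart (log2 fold change 0.50, SE 0.14; limma, adjusted p = 0.0223). For *C1qb*, 3772, 4585 and 3167 stood against 4931, 3994 and 4190, which overlapped (log2 fold change 0.20, SE 0.15; limma, adjusted p = 0.337). The change of *C1qa* was exceeded by 28.8% of tested genes and that of *C1qb* by 42.5%. Among the 6 nearest genes *Epha8* passed the threshold (log2 fold change 3.35; limma, adjusted p = 0.006).

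The C1q genes were read beside 12 macrophage markers, which moved both ways. *Aif1* and *Fcgr1* were higher in mutant-labelled libraries (log2 fold changes of 1.04 and 1.58), and *Csf1r*, the receptor on which macrophage survival depends, *Cx3cr1*, *Mrc1* and *Cd163* were lower (-1.25, -1.83, -2.27 and -1.94). The other 6 did not pass the threshold. The count of markers higher was 1 after rescaling to the 75th percentile, with a term for sex, without control-labelled replicate 3, or without mutant-labelled replicate 1. Their summed value was 13620 to 18409 in the control-labelled libraries and 7565 to 9594 in the mutant-labelled ones, while that of the C1q subunits was 10338 to 13934 and 14959 to 18116. The log2 ratio of C1q to these markers was -0.54, -0.09 and -0.40 in control-labelled and 0.92, 0.65 and 1.14 in mutant-labelled replicates, a difference of 1.24 without overlap (exact permutation p = 0.1). Against single markers, chosen after the values were seen, the ratio of *C1qa* to *Csf1r* differed by 1.81, to *Cd68* by 0.78 and to *Aif1* by -0.48 on the log2 scale (exact permutation p = 0.1 each), so the direction depended on the marker. The log2 ratio of C1q to *C1ra* and *C1s1* was 0.90 ± 0.25 and then 0.17 ± 0.18 (SD, n = 3; exact permutation p = 0.1), lower in each mutant-labelled library.

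**Figure D4:**
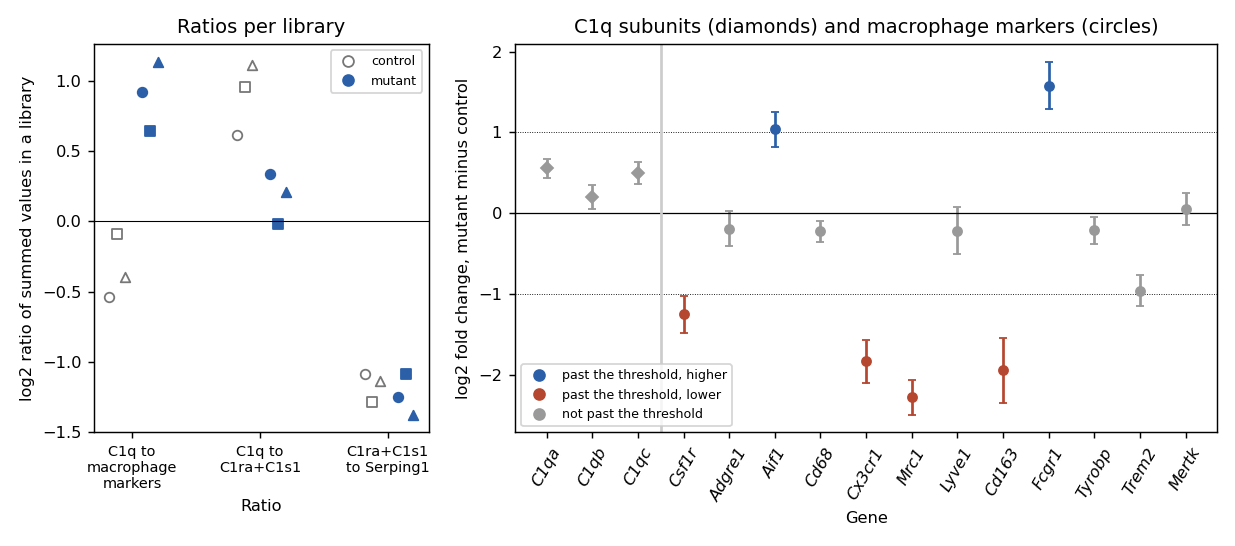
Left, log2 ratios of summed values in each library (open grey control-labelled, filled blue mutant-labelled; circle, square and triangle are replicates 1, 2 and 3); right, log2 fold change with SE of the C1q subunits and 12 macrophage markers, with dotted lines at 2-fold. C1q to macrophage markers is below 0 in each control-labelled library and above 0.6 in each mutant-labelled one, and the markers range from -2.27 (*Mrc1*) to 1.58 (*Fcgr1*).

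Other cell types that can hold complement transcripts were read the same way. Markers of NK cells were higher in 4 of 4 (summed value 11.3 to 41.1 and 138 to 210), with *Ncr1* and *Eomes* at 0 in the control-labelled libraries. The monocyte genes *Ly6c2* and *Plac8* were higher (log2 fold changes of 4.28 and 4.98), and *Ccr2* was not past the threshold. Of 7 fibroblast markers 0 were higher and 2 lower, *Col1a1* and *Col3a1*. The endothelial list had 0 of 6 past the threshold, while 5 of 6 skeletal muscle markers were higher (summed value 6110 to 32211 and 40330 to 306302). Of 5 tested hepatocyte markers 0 passed the threshold, with *Alb* at most 23.2 normalized reads in any library and a summed value of 15.5 to 85.0 and 100.4 to 128. Among the other lists, 2 of 4 general leukocyte and 3 of 5 T cell markers were higher, 6 of 6 erythroid, 1 of 4 mast cell and 1 of 5 perineurial markers were lower, and 0 of 3 neutrophil, 0 of 4 B cell and 0 of 5 pericyte and smooth muscle markers passed the threshold. Of the T cell markers, *Cd8a*, at 0 in the control-labelled libraries, was also admitted only through the mutant-labelled ones, and *Cd3e* and *Cd3g* did not pass. The part of the moving lists in the change of the complement genes was not tested.

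On a scale of normalized reads per kilobase of exon (GENCODE M21), *Serping1* had the highest level in both groups (6545 ± 1747 and 14889.8 ± 1135, SD, n = 3), and *C3* the lowest (14.1 ± 4.23 and 149 ± 63.9). The lengths are approximate, since the constitutive regions used for counting are not known here. In control-labelled libraries the order after *Serping1* was *C1qa*, *C1qb*, *C1qc*, *C1s1*, *C1ra*, *C2*, *Cfb*, *C4b* and *C3*. There the C1q subunits stood at 2163 to 4130.1 per kilobase and the convertase genes *C2*, *Cfb* and *C4b* at 94.2 to 562. In that order *Serping1* and *C1qa*, *C1qa* and *C1qb*, *C1s1* and *C1ra*, and *C1ra* and *C2* overlapped. In mutant-labelled libraries *Cfb* (6537 ± 338) moved to the place after *Serping1*, followed by *C1qa* (6085 ± 649), *C2* (5087 ± 888), *C1qb*, *C1ra*, *C1qc*, *C4b* (2681 ± 301), *C1s1* and *C3*. From *Cfb* to *C1ra* each overlapped with the next, as did *C1qc* and *C4b*.

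The rest of the complement system was read from a list of 46 further genes, 36 of which were tested. Of these, 11 rose and 4 fell past the threshold (13.9% and 10.4% of all tested genes), and 21 did not pass it, with a median log2 fold change of 0.40. Among those that rose, *Hc*, *C9* and *Cfi* (control means 4.41, 0 and 2.53) reached the minimum mean of 10 only in the mutant-labelled libraries. The filter thus admitted them through the group where they were high. The number that rose was 8 to 12 under 12 other settings. *Mbl1*, *C8a* and *C4bp* were at 0 in all libraries. Upstream of C4, *Masp1*, a protease of the lectin pathway, went from 32.2, 3.78 and 0 to 88.0, 36.7 and 154 normalized reads (log2 fold change 3.89, SE 1.20; limma, adjusted p = 0.0353). Its log2 fold change was 5.09 with a pseudocount of 0.1 and 2.34 with 10, and its call was lost without mutant-labelled replicate 3 (3.42). Over all alternatives its adjusted p ran from 0.00704 to 0.126 (limma, edgeR or DESeq2). Of the 6 tested lectin pathway genes, 1 fell, *Fcna*. Of 5 tested terminal pathway genes 3 rose, *Hc* (C5), *C7* and *C9*, all from low levels, and *C6* and *C8g* did not pass the threshold. Like *Hc* and *C9*, *C6* was admitted by the filter only through the mutant-labelled libraries (means of 5.48 and 10.9). *C8a* and *C8b*, low in both groups, were not tested, so the count of 3 depends partly on the filter. *C8g* had 33.3, 30.2 and 29.1 and then 24.0, 9.65 and 17.8 normalized reads, lower in each mutant-labelled library (log2 fold change -0.90; limma, adjusted p = 0.237). *C7* had 41.1, 75.6 and 52.0 and then 209, 190 and 190 normalized reads (log2 fold change 1.83, SE 0.32; limma, adjusted p = 0.00281). *Hc* had 0, 13.2 and 0 and then 29.8, 54.0 and 51.4. *C9* had 0 reads in the control-labelled libraries and 37.8, 28.9 and 11.9 normalized reads in the mutant-labelled ones, at least 6.9-fold higher than 3 reads per library, a floor for counting error only. Reads amplified by PCR and lacking molecular identifiers need not stand for separate molecules.

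The regulators moved both ways. *Clu*, clusterin, an inhibitor of the terminal complex, had 552, 317 and 218 and then 1372, 1981 and 1770 normalized reads (log2 fold change 2.32, SE 0.31; limma, adjusted p = 0.000757). *Csmd1*, a large membrane protein that can inhibit complement, had 267, 190 and 176 and then 775, 701 and 868 (1.90, SE 0.21; limma, adjusted p = 0.000244). *Vtn*, vitronectin, which also binds the terminal complex, fell from 4985, 4800 and 2956 to 1430, 1196 and 1147 (-1.72, SE 0.20; limma, adjusted p = 0.000373). *Susd4*, another regulator, fell from 351, 308 and 408 to 77.1, 71.4 and 85.1 (-2.17, SE 0.24; limma, adjusted p = 0.000255). *Cfi*, the protease that inactivates C3b and C4b proteins, had 0, 0 and 7.60 and then 4.36, 54.0 and 37.6 normalized reads, and its call (unadjusted p; limma, adjusted p = 0.0617) was lost without any 1 of 4 libraries. *Csmd1* and *Susd4* both encode membrane proteins. Of 5 other tested genes, *Cd46*, *Cr1l*, *Cd55*, *Cd59a* and *Cd59b*, all membrane regulators that protect host cells, 0 rose and *Cd59b* fell, a call lost under 6 of 12 other settings and without any 1 of 5 libraries. Its paralog *Cd59a* had 3375 to 3898 and 2021 to 2166 normalized reads, a log2 fold change of -0.80 that stayed below 2-fold.

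Among 8 tested receptors 2 rose, *Itgax*, a chain of complement receptor 4, and *C3ar1*, the receptor of the C3 anaphylatoxin. *Itgax* had 17.8, 26.5 and 78.6 and then 218, 210 and 209 normalized reads (log2 fold change 2.63, SE 0.52; limma, adjusted p = 0.00519). *C3ar1* had 1246, 1363 and 1002 and then 2117, 2653 and 2452 (limma, adjusted p = 0.00118), a change at the 2-fold line that fell below it under 4 of 12 other settings and without any 1 of 3 libraries. *Itgam*, the partner chain of complement receptor 3, had a log2 fold change of 0.56 (limma, adjusted p = 0.0306), and *C5ar1* one of -0.18. The calls of *Cd59b*, *Fcna* and *C3ar1* lie outside the 12 largest changes and these genes were named after their values were seen, as were *Cfd*, *C6*, *C8g*, *Cd59a*, *Itgam* and *C5ar1*.

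**Figure D5:**
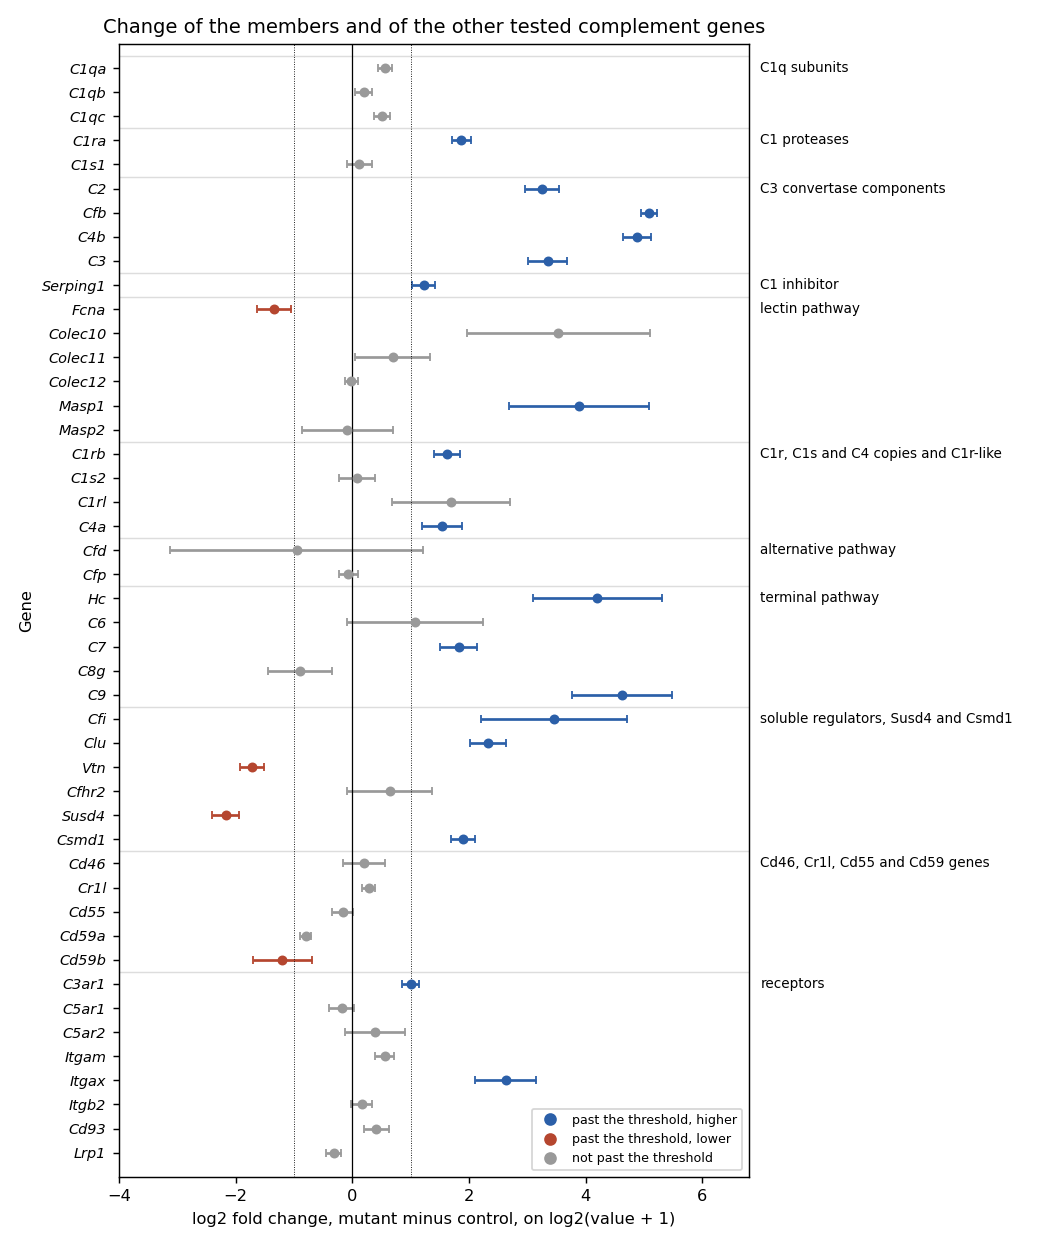
Log2 fold change (mutant minus control, on log2(value + 1), bars are SE) of the 10 members and of 36 other tested complement genes, grouped by role; blue and red mark genes past the threshold, grey those not past it, and dotted lines 2-fold. The C3 convertase components stand together at 3.25 to 5.09, and *Cd46*, *Cr1l*, *Cd55*, *Cd59a* and *Cd59b* lie between -1.20 and 0.28.

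Profiles over the 6 libraries were compared with those of 13032 genes with a symbol and a mean of at least 100, by the root mean square difference of centred log2 values. The genes nearest to *Cfb* were *Herc6* (0.17), *Asns* (0.19) and *Ccl2* (0.21), with log2 fold changes of 4.96, 5.02 and 5.28. *Gadd45g* (0.24), *Fam46b* (0.27) and *Cth* (0.27) were nearest to *C3*, and *Eml2* (0.051), *Dab2ip* (0.053) and *Pard3* (0.056) to *C1qa*. With 6 libraries in 2 groups, a like profile rests largely on a change of like size.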

How the data were processed

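RNA of P4 sciatic nerves was sequenced by the authors as oriented cDNA of the poly-A fraction (paired ends of 130 bases), mapped to mm10 with STAR 2.4.0 and counted on constitutive regions of FAST DB genes. The deposited table holds a signal per gene and library, counts divided by DESeq2 size factors. Dividing by the value of 1 read gave whole reads for 100% of values (within 0.02), which edgeR and DESeq2 used as alternatives.

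Groups came from the genotype labels (3 libraries each). limma 3.58.1 (lmFit, eBayes with trend; R 4.3.3) was fitted to log2(value + 1), which understates changes of low genes, for genes with a mean of at least 10 in at least 1 genotype, and tested on simulated data with 200 changed genes. P-values were adjusted by Benjamini-Hochberg over the tested genes. Ratios were compared by exact two-sided permutation. Every member was named, and of the other complement genes the 12 largest changes past the threshold; exceptions are stated. Alternatives were pseudocounts of 0.1 and 10, other filters, rescaling, TMM, no trend, edgeR 4.0.16, DESeq2 1.42.0, a replicate block, a sex term and leaving out each library. The members and lists were chosen with earlier results of these data known. Editing and splicing were not analysed here, and 1 complement gene is not reported here.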

Additional observations from a re-analysis of the deposited data

How the results depend on the processing

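The count of complement components past the threshold was 6 under each of 12 other settings and 5 or 6 when 1 library was left out, *Serping1* being the gene lost without control-labelled replicate 3. The 6 kept their direction under all of these settings. Rescaling moved the median of all tested genes from 0.03 to 0.20 (same total) and to -0.09 (same 75th percentile), and that of the members from 1.55 to 1.71 and 1.43; leaving out 1 library gave 1.32 to 1.69. The macrophage markers higher past the threshold went from 2 to 1 with the same 75th percentile or a sex term, and were 1 or 2 without 1 library. *C1s1*, never past the threshold, reversed to -0.13 and -0.0077 without control-labelled replicate 3 or mutant-labelled replicate 2, and reached 0.29 at most without 1 library. With mean log2 values per gene in place of log2 sums, the difference of the ratio of C1q to macrophage markers was 0.95 and that of *C1ra* and *C1s1* to *Serping1* was -0.23; without 1 library the latter ran from -0.14 to 0.0048. The causes were not tested.

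The labels do not say whether replicate numbers pair the animals. Deviations of same-numbered libraries correlated at -0.062, -0.055 and 0.009, and not every library correlated best with its own number. With 3 libraries per group, such correlations cannot exclude pairing. With the replicate block, 6 members passed higher as before, 11 other complement genes passed higher and 3 in place of 4 lower, *Cd59b* being lost (log2 fold change -1.20). The control-labelled values of *Masp1*, *Hc*, *C9* and *Cfi* rest on few or no reads, so the size of their changes depends on the pseudocount. With pseudocounts of 0.1 and 10, *C9* had log2 fold changes of 7.88 and 1.78. *Masp1* lost its call without mutant-labelled replicate 3 (3.42).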
